A study of Mus musculus with 28 samples.

Results

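Aire was 1 of the 13128 genes measured by RNA sequencing in cultures of DC2 cells, an immortalized mouse line of epithelium from the distal part of the caput, the head of the epididymis. It was chosen by its own log2 CPM values over the 7 groups (CPM, reads scaled to the size of the library), late and high in vehicle cultures and low after corticosterone, so those values are given as a description, with no test. Confluent cells on collagen-coated plates were given 500 ng/ml corticosterone in ethanol for 3 days, or ethanol alone at 0.1%, and fresh medium at days 3 and 6 began a recovery that ran to day 9. The groups were corticosterone at days 3, 6 and 9, vehicle at days 3, 6 and 9, and cells taken at day 0 before either addition, with 4 libraries in each and 28 in all. All groups were the same line, genotype and medium, and no label states that replicates came from different cultures, so p-values measure the spread between these libraries.

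Aire, the autoimmune regulator, is a nuclear protein best known from the medulla of the thymus. There, in medullary epithelial cells, it lets a great many genes of other tissues be transcribed, so that developing T cells that react to them can be removed, and its loss in humans and mice leads to autoimmunity against many organs. In those cells Aire is switched on by RANK and CD40, receptors that act through the non-canonical NF-κB pathway. Outside the thymus it is known from rare cells of lymph nodes and from germ cells of the testis.

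In the GENCODE M21 annotation of GRCm38, the build that the submitters' processing notes name as mm10, Aire (ENSMUSG00000000731.15) lies on the minus strand at chr10:78030022-78043610. It spans 13589 bases and has 16 annotated transcripts, of which 11 are protein-coding, with up to 15 exons. Its first 1664 bases overlap Dnmt3l on the opposite strand, and 67 of the 3825 exonic bases of Aire are shared with exons of Dnmt3l. The libraries came from a stranded kit, but whether the quantification used strand is not given in the sources used here. Dnmt3l was not among the 13128 genes tested.

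The promoter sequences below are those of Aire, of its nearest downstream neighbour Pfkl, of the prolyl hydroxylase gene Egln3 and of the mucin gene Muc2, which the results return to. They run from 250 bases before to 50 bases after the first transcribed base, on the strand of the gene, and come from RefSeq on GRCm38.p6. Capitals mark ACGTG or GCGTG on either strand, the core letters that hypoxia-inducible factors bind.
Aire promoter, chr10:78043561-78043860, minus strand: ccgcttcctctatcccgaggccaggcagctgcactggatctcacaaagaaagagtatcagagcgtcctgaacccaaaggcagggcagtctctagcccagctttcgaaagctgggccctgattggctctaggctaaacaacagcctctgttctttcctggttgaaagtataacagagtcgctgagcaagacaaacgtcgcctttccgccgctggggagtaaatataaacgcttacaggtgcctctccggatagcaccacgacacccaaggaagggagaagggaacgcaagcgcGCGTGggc
Pfkl promoter, chr10:78009758-78010057, minus strand: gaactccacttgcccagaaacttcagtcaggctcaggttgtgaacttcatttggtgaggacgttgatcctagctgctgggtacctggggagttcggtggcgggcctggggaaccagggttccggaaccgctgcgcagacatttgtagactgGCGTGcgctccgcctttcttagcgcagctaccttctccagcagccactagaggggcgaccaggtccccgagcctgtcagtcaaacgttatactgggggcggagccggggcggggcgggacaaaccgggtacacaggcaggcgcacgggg
Egln3 promoter, chr12:54203825-54204124, minus strand: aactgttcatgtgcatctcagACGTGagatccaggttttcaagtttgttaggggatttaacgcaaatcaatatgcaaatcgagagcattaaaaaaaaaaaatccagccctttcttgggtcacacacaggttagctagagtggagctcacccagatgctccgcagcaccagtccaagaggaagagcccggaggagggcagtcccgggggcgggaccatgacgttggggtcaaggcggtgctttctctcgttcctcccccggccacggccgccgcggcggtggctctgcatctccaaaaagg
Muc2 promoter, chr7:141690090-141690389, plus strand: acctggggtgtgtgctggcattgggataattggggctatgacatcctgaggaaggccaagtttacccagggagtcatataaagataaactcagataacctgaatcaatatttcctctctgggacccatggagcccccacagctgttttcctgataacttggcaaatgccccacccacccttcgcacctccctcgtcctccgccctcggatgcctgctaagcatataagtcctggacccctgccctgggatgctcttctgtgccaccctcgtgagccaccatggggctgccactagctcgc

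The Aire window held 1 such core, GCGTG, starting at base 43 after the transcription start. It also held TATAAA starting 29 bases before the start, and CCAAT on the opposite strand 131 bases before it. Neither ACANNNTGT, the half-site spacing of glucocorticoid receptor elements, nor GGG followed by NNNNN and CC, the spacing of many NF-κB sites, occurred in these 300 bases. Of 32851 RefSeq promoters of the same length, 43.8% held ACGTG or GCGTG, 13.6% TATAAA, 37.4% CCAAT, 6.85% ACANNNTGT and 50.8% the NF-κB spacing, all searched on both strands. The Pfkl window held 1 GCGTG, 99 bases before the start, the Egln3 window 1 ACGTG, and the Muc2 window 0 cores. A match describes letters and shows neither binding nor its absence.

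Aire was near the bottom of the table at day 0 and stayed there at day 3 in either medium. Before treatment its 4 libraries read -2.56, -2.06, -2.60 and -2.14 log2 CPM. At day 3 the corticosterone libraries read -2.91, -2.81, -2.38 and -3.21 log2 CPM, against -2.72, -3.15, -3.16 and -1.43 log2 CPM in vehicle libraries. The day 3 groups overlapped, and 1 vehicle library, replicate 6, stood above every corticosterone library. The mean difference, corticosterone minus vehicle, was -0.21 ± 0.37 on the log2 scale (SE, n = 4 each), and without that library it was 0.19, the other sign.

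The groups parted at day 6, after 3 days of recovery. Aire read -2.24, -3.35, -2.83 and -2.00 log2 CPM in corticosterone libraries, against 1.88, 1.83, 2.26 and 2.26 log2 CPM in vehicle libraries. Every vehicle library was above every corticosterone library, and no treated library of day 6 was above the highest vehicle library of day 3. In linear terms Aire averaged 0.175 ± 0.0685 CPM after corticosterone and 4.20 ± 0.678 CPM in vehicle (SD, n = 4 each). The log2 difference of -4.66 ± 0.37 (SE) corresponds to a level 25.3-fold lower after corticosterone, and 3 of the 13128 genes had a more negative value.

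At day 9 the gap was wider. Aire read -1.43, -0.35, -1.08 and -2.33 log2 CPM in corticosterone libraries, against 3.90, 3.91, 4.14 and 4.07 log2 CPM in vehicle libraries. The groups lay far apart, and vehicle libraries agreed closely, while the corticosterone libraries were spread over about 2 log2 units, with replicate 4 highest and replicate 6 lowest. The means were 0.458 ± 0.246 CPM after corticosterone and 16.1 ± 1.35 CPM in vehicle (SD, n = 4 each). The log2 difference was -5.30 ± 0.37 (SE), or 39.4-fold lower after corticosterone, and was the most negative of all 13128 genes in that comparison.

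**Figure D1:**
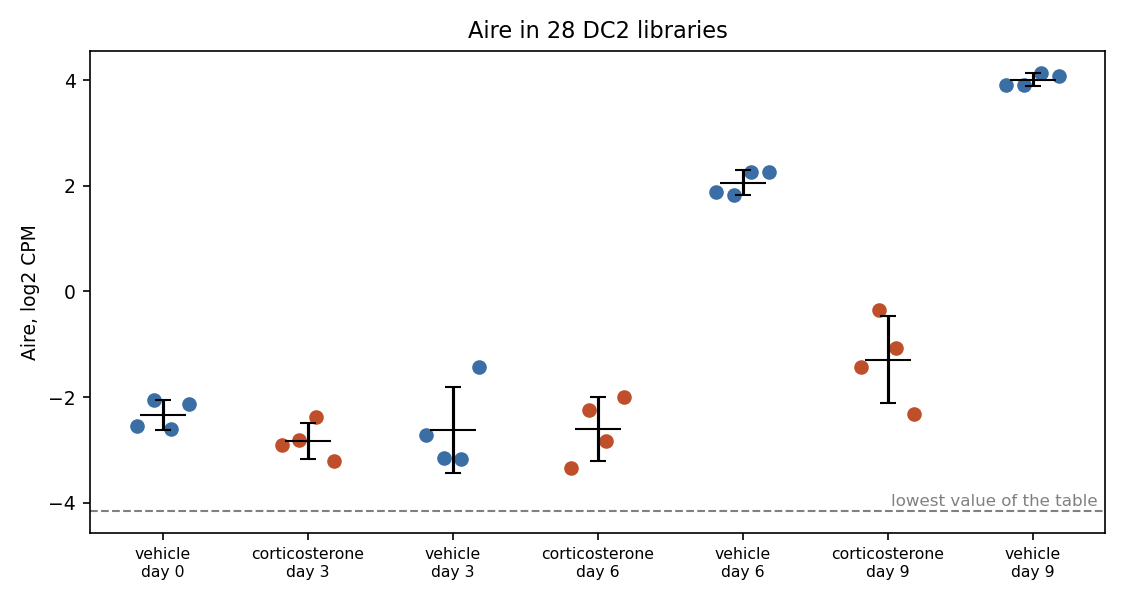
Aire in each of the 28 libraries, in log2 CPM, with points for libraries (red, corticosterone; blue, vehicle), a bar for the mean of 4 and whiskers for its SD; the dashed line is the lowest value of the table, -4.15. The vehicle libraries of days 6 and 9 stand above 1.8, and the other 20 libraries stand below -0.3.

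Within vehicle cultures Aire was higher at each step after day 3. It was higher by 4.68 ± 0.37 on the log2 scale at day 6 than at day 3, a 25.6-fold difference and the third highest value of all genes. From there to day 9 it was higher by a further 1.95 ± 0.37 (3.85-fold), the fourth highest. Which step was the larger depended on the scale, since the means were 0.200 ± 0.0385, 0.186 ± 0.124, 4.20 ± 0.678 and 16.1 ± 1.35 CPM (SD, n = 4 each) at days 0, 3, 6 and 9, and on a log2(CPM + 5) scale the steps were 0.82 and 1.20. Day 9 exceeded day 0 by 6.34 ± 0.37 (81.2-fold), again the fourth highest. After corticosterone the day 9 mean exceeded the day 6 mean by 1.31, the 264th highest value, and those groups overlapped through replicate 6 of day 9.

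The order of the group means was vehicle day 9 (4.00 ± 0.121 log2 CPM, SD), vehicle day 6 (2.06 ± 0.235), corticosterone day 9 (-1.29 ± 0.822), vehicle day 0 (-2.34 ± 0.279), corticosterone day 6 (-2.60 ± 0.606), vehicle day 3 (-2.62 ± 0.816) and corticosterone day 3 (-2.83 ± 0.344). The 2 highest were clear of each other and of all others. The 4 lowest overlapped in their ranges, and corticosterone day 9 overlapped vehicle day 0 through 1 library. Low values carry the most uncertainty. They lie below 1 CPM, the deposited values come without counts, so the depth behind them is unknown, and the folds depend on the prior count added before the log, which is not given in the sources used here. On a log2(CPM + 1) scale the differences were -2.14 at day 6 and -3.56 at day 9, with every sign kept at those days. In bulk RNA, fewer cells that transcribe a gene and less RNA per cell cannot be told apart.

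The genes beside Aire on chromosome 10 were followed in the same fit, whatever they showed. Of 10 protein-coding neighbours, 5 on each side, 7 were tested. Benjamini-Hochberg adjusted p under 0.05 (limma, over all 13128 genes) called 2 of the 7 higher and 3 lower with corticosterone at day 3, where 49.0% of all genes were called, 2 higher and 3 lower at day 6 (47.2% of all genes) and 1 higher and 1 lower at day 9 (28.5%), the last a share near the background. Their median log2 difference at day 6 was -0.12, and that of all genes was -0.00. Higher, lower, rose and fell with corticosterone mean against vehicle of the same day, not a change over time. In vehicle at day 9 against day 0, 5 were higher and 2 lower, where 70.4% of all genes were called, 35.9% higher and 34.6% lower.

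Pfkl, the nearest of them downstream, was lower after corticosterone at the same days as Aire. It encodes the liver-type subunit of phosphofructokinase, which catalyses a committed step of glycolysis, lies on the same strand as Aire, and its gene begins 19.9 kb beyond the 3′ end of Aire. At day 3 it read 7.0, 6.92, 6.81 and 7.15 log2 CPM in corticosterone libraries, against 6.54, 6.83, 6.77 and 6.94 log2 CPM in vehicle libraries. At day 6 it read 7.05, 6.84, 6.84 and 6.73 log2 CPM in corticosterone libraries, against 8.54, 8.59, 8.68 and 8.84 log2 CPM in vehicle libraries. At day 9 the corticosterone libraries read 7.94, 7.92, 8.05 and 7.55 log2 CPM, against 9.35, 9.28, 9.42 and 9.16 log2 CPM in vehicle libraries. The groups overlapped at day 3 and were apart at days 6 and 9, and within the treated day 9 group replicate 6 was lowest for Pfkl as for Aire.

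Pfkl was lower with corticosterone than with vehicle at both late days. Its treated libraries of day 9 still stood above its day 0 libraries, which read 6.65 to 6.84 log2 CPM. Its log2 difference was -1.80 ± 0.10 (SE; limma, adjusted p = 4.49e-14) at day 6, and -1.44 ± 0.10 (adjusted p = 2.94e-11) at day 9. At day 3 it differed by 0.20 ± 0.10 (adjusted p = 0.0996), and by 0.25 (adjusted p = 0.0489) without vehicle replicate 6. The day 6 effect differed from the day 3 effect by -2.00 ± 0.14 (adjusted p = 1.78e-10). In vehicle cultures Pfkl rose by 1.89 (adjusted p = 1.7e-13) over the step to day 6, and by 0.64 (adjusted p = 7.98e-05) over the step to day 9, where 24.0% and 7.84% of all genes were called.

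The gene on the other side of Aire, beyond Dnmt3l, went another way. Icosl, the ligand of the T cell costimulator ICOS, begins 25.7 kb from Aire and rose with corticosterone, by 0.55 (limma, adjusted p = 1.66e-07) at day 3 and 0.43 (adjusted p = 6.8e-06) at day 6. At day 9 it differed by -0.15 (adjusted p = 0.0919), a call gained without vehicle replicate 6 (-0.20). Gatd3a, a mitochondrial protein of the glutamine amidotransferase family, rose as well, with differences of 0.69 (adjusted p = 2.31e-09) at day 3 and 0.62 (adjusted p = 1.81e-08) at day 6. Pwp2, a factor for assembly of the small ribosomal subunit, was lower early and higher late, with differences of -0.34 (adjusted p = 2.88e-09), -0.12 (adjusted p = 0.00506) and 0.18 (adjusted p = 0.000114) over days 3, 6 and 9.

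Of the remaining 3 neighbours, 1 passed the test at day 6, and not firmly. Trappc10, of the TRAPP vesicle-tethering complex, differed by -0.09 (limma, adjusted p = 0.239). Trpm2, a calcium-permeable channel, differed by -0.40 (adjusted p = 0.19). Cfap410, a protein of cilia, was called at -0.15 (adjusted p = 0.0448), but not with the replicate number as a block (-0.13, adjusted p = 0.119), with quantile normalization, or when any 1 of 6 single libraries was left out, where its values ran from -0.17 to -0.13.

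**Figure D2:**
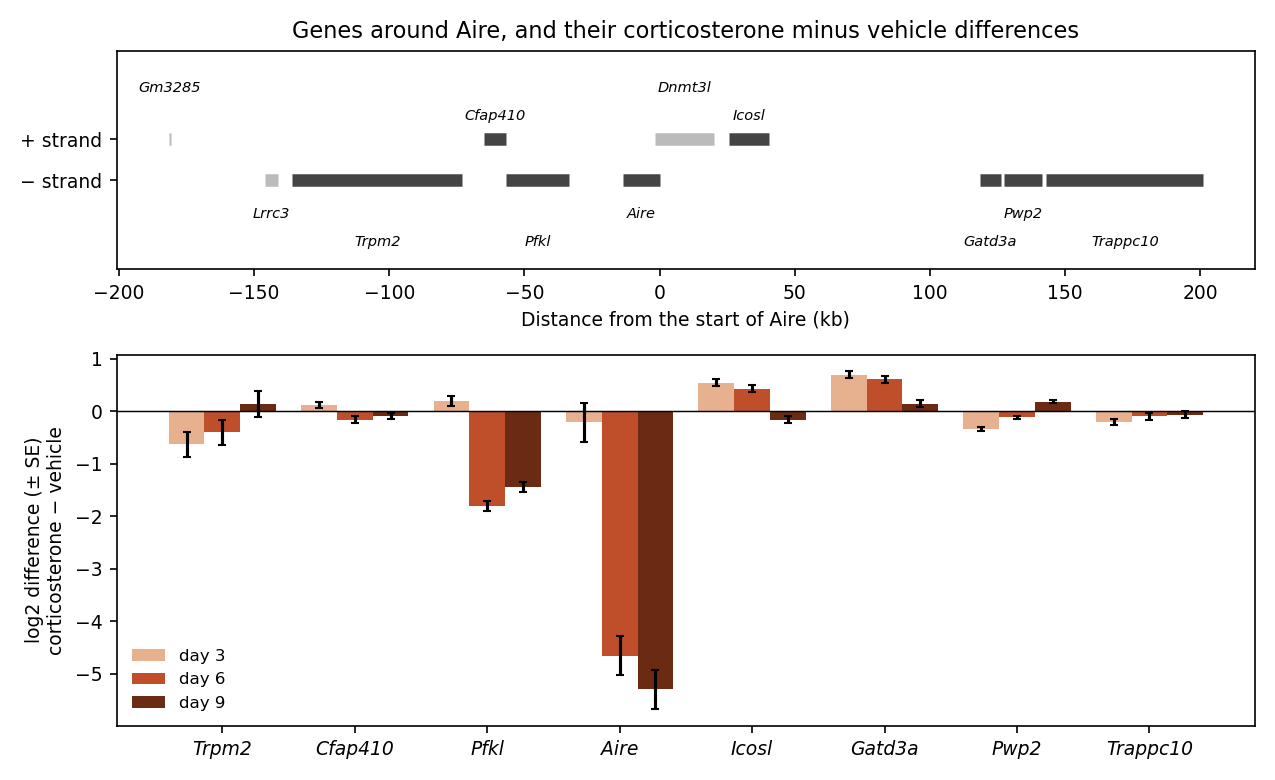
Upper panel: genes around Aire by strand and distance from its start in kb (dark, tested; grey, not among the genes tested). Lower panel: log2 difference ± SE, corticosterone minus vehicle, at days 3, 6 and 9 for the 7 tested neighbours and Aire; at days 6 and 9 Aire and Pfkl carry the longest downward bars.

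The genes whose 7 group means most resembled those of Aire were then ranked by Pearson r, among 4498 genes whose means spanned at least 1 log2 unit and reached 0 log2 CPM. The ranking chose genes on these values, so it is a description with no test, and all points share the same 28 libraries. Of the 4498, 62 (1.38%) had r of at least 0.9, and 15 had r of -0.9 or lower. For Aire, vehicle days 6 and 9 stand far from the other groups, so those 2 points weigh heavily in r. Rank correlation over the 28 libraries kept 1 of the first 10 genes, quantile normalization 3 and the log2(CPM + 1) scale 6.

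Muc2, a gel-forming mucin of the intestine, was first (r = 0.9956 over 7 group means, 0.977 over 28 libraries). It read -3.63, -4.15, -4.15 and -3.85 log2 CPM in corticosterone libraries of day 6, against 0.20, -0.33, -0.25 and 0.01 log2 CPM in vehicle libraries. At day 9 it read -3.58, -3.13, -2.19 and -3.35 log2 CPM in corticosterone libraries, against 1.30, 1.24, 1.5 and 0.87 log2 CPM in vehicle libraries. Several of its treated libraries, and all 4 of day 0, sat at the floor of the table, -4.15, so no fold is given.

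The following 9 were, in order, Ero1a, Bnip3l, Egln1, Fam162a, Pgm1, Pdk1, Higd1a, Apln and Gys1, with r between 0.9751 and 0.9889 over the group means and between 0.9417 and 0.9701 over libraries. Their products include an oxidase of disulfide formation in the endoplasmic reticulum (Ero1a), a mitophagy receptor (Bnip3l), a prolyl hydroxylase that marks hypoxia-inducible factor for breakdown (Egln1), a kinase that holds pyruvate out of the mitochondrion (Pdk1), and enzymes of glycogen metabolism (Pgm1, Gys1). Apln encodes the peptide hormone apelin. At day 6 the log2 differences, corticosterone minus vehicle, were -1.38 for Ero1a, -1.21 for Egln1, -2.53 for Pdk1 and -0.91 for Apln. Pfkl was 11th (r = 0.9742) and was the only 1 of 5 eligible neighbours at 0.9 or above.

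At the opposite end stood Svip (r = -0.9549), Wasf3 (-0.9536), Unc5b (-0.9474), Rtn2 (-0.9467) and Gsta4 (-0.9402). Unc5b, a netrin receptor, averaged 7.82 log2 CPM after corticosterone at day 6 and 7.03 log2 CPM in vehicle, and 7.39 log2 CPM after corticosterone at day 9 and 6.59 log2 CPM in vehicle. Wasf3, a regulator of actin branching, averaged 5.11 log2 CPM after corticosterone at day 6 and 4.23 log2 CPM in vehicle. Their spans were smaller than that of Aire.

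**Figure D3:**
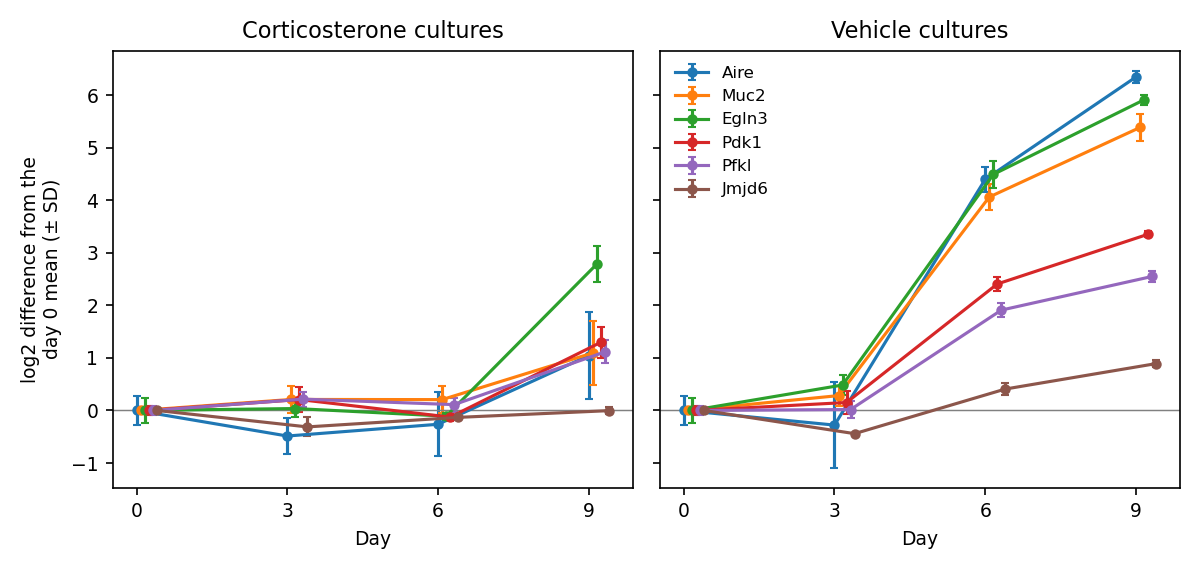
Group means of Aire and 5 other genes as log2 differences from their day 0 means (± SD, n = 4) by day, in corticosterone cultures (left) and vehicle cultures (right); both panels start from the same day 0 libraries. In vehicle all 6 are highest at day 9, Aire by 6.34; in corticosterone cultures Egln3 is the highest of the 6 at day 9.

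Several of these genes belong to a list of 26 targets of hypoxia-inducible factors, all tested. Of its members 25 were eligible for the ranking, and 9 reached r of 0.9 with Aire. Most of the list was lower with corticosterone than with vehicle at the late days. At day 6, 2 members were higher with corticosterone and 21 lower (22.9% and 24.3% of all genes), with a median of -0.73 against -0.00 for all genes. At day 9, 0 were higher and 24 lower (14.1% and 14.4% of all genes), with a median of -1.23 against 0.00. At day 3 the picture was mixed, with 13 higher and 6 lower (23.3% and 25.6%) and a median of 0.19. In vehicle cultures 24 rose and 0 fell at day 6 against day 3 (12.8% and 11.2%), and 23 rose and 0 fell at day 9 against day 6 (4.69% and 3.15%). The list was picked with these results known and shares members with the ranking above, so its counts are not independent evidence. Oxygen in the cultures was not among the data analysed here.

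Egln3, a prolyl hydroxylase that acts on hypoxia-inducible factor and is itself a target of it, read 1.26, 1.23, 1.32 and 1.38 log2 CPM in corticosterone libraries of day 6, against 5.67, 5.67, 6.12 and 6.12 log2 CPM in vehicle libraries. Replicates 5 and 6 were the higher vehicle libraries for Egln3, Pfkl and Aire. At day 9 it read 4.22, 4.21, 4.60 and 3.74 log2 CPM in corticosterone libraries, against 7.30, 7.26, 7.45 and 7.25 log2 CPM in vehicle libraries. Replicate 6 was again the lowest treated library, and Egln3 after corticosterone at day 9 was above all its day 0 libraries, whereas Aire overlapped its own. Egln3 was lower with corticosterone than with vehicle of the same day. Its differences were -4.60 ± 0.15 (SE, limma, adjusted p = 2.18e-18) at day 6 and -3.12 ± 0.15 (adjusted p = 2.18e-14) at day 9. At day 3, where the Aire groups overlapped, Egln3 was called lower as well, by -0.45 (limma, adjusted p = 0.0125). That call ended without vehicle day 3 replicate 6 (-0.36, adjusted p = 0.0573) and on the log2(CPM + 5) scale (-0.18, adjusted p = 0.159).

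Ldha, the lactate dehydrogenase subunit of glycolytic tissues, was lower with corticosterone than with vehicle at days 6 and 9. Its differences were -2.24 (limma, adjusted p = 3.03e-17) and -1.49 (adjusted p = 5.29e-13). P4ha1, a subunit of collagen prolyl hydroxylase, gave -1.81 (adjusted p = 2.96e-16) and -1.37 (adjusted p = 5.29e-13) there. Ldha and P4ha1 were lower at day 3 too (-0.46 and -0.36, adjusted p = 5.1e-05 and 0.000248), where the Aire groups overlapped. Averaged over the 26 members, the list went the other way at day 3. It stood between 5.93 and 5.97 log2 CPM in corticosterone libraries, above 5.52 to 5.61 log2 CPM in vehicle libraries. At day 6 the list stood between 5.83 and 5.99 log2 CPM in corticosterone libraries, against 6.86 to 7.15 log2 CPM in vehicle libraries. Treated libraries of every day were above the day 0 libraries, which stood between 5.38 and 5.46 log2 CPM.

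Receptors and NF-κB genes are those of the route that switches Aire on in the thymus. With corticosterone they were called in both directions at days 3 and 6, and only lower at day 9. Of 28 listed, 25 were tested. With corticosterone 8 were higher and 8 lower at day 3 (23.3% and 25.6% of all genes), 4 higher and 10 lower at day 6 (22.9% and 24.3%), and 0 higher and 8 lower at day 9 (14.1% and 14.4%; 1 higher without corticosterone replicate 4), with medians of -0.02, -0.06 and -0.14 at days 3, 6 and 9. The total called at day 9, 8 of 25, was near the 28.5% of all genes. No member among the 9 eligible reached r of 0.9 with Aire. Tnfrsf11a, which encodes RANK, differed by -0.15 ± 0.24 at day 6 (limma, adjusted p = 0.644). Cd40 was called lower at day 6, by -1.44 ± 0.53 (adjusted p = 0.0281), and was not refitted without single libraries.

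Nfkb2 and Relb, which together form the non-canonical NF-κB dimer, were lower with corticosterone at every day. The differences over days 3, 6 and 9 were -0.47, -0.58 and -0.28 for Nfkb2 (limma, adjusted p = 2.72e-08, 4.31e-10 and 0.000189). For Relb they were -0.66, -0.70 and -0.36 (adjusted p = 3.08e-08, 1.14e-08 and 0.000558). Birc2, a ubiquitin ligase that restrains that pathway, rose, with 1.11 and 1.29 over days 3 and 6 (adjusted p = 7.94e-11 and 3.74e-12). Nfkbie, an inhibitor of NF-κB, fell, with -0.74, -1.19 and -0.61 over the 3 days (adjusted p = 5.94e-06, 2.22e-09 and 0.000214). These 4 were already called at day 3, where Aire was low in both arms and a lowering of it could hardly be seen. Their part in the values of Aire was not tested.

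In vehicle cultures 7 of 25 tested members of the NF-κB list rose and 0 fell at day 6 against day 3 (12.8% and 11.2% of all genes). The total was near the 24.0% of all genes called there, but all 7 calls were rises. The count of rises was 4 without vehicle day 3 replicate 5, 4 without vehicle day 6 replicate 5 and 3 without vehicle day 6 replicate 6. Nfkb2 gave 0.15 (limma, adjusted p = 0.0311) and Relb 0.22 (adjusted p = 0.0324) in that comparison. Each call ended without any 1 of vehicle day 3 replicate 5, day 6 replicate 5 or day 6 replicate 6, among others. At day 9 against day 6, 5 members rose and 0 fell (4.69% and 3.15% of all genes). At day 9 against day 0, 12 rose and 4 fell (35.9% and 34.6%).

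A further list held 19 transcription factors and chromatin proteins tied to Aire transcription or to processing of its RNA, of which 15 were tested. At day 6, 2 were higher and 7 lower with corticosterone (22.9% and 24.3% of all genes; median -0.34), and the lower count was 4 under a stricter filter on low values. Jmjd6, an oxygenase that mouse thymus needs for correct splicing of Aire RNA, was the single member with r of at least 0.9 (0.9561, 24th). It read 5.44, 5.41, 5.42 and 5.34 log2 CPM in corticosterone libraries of day 6, against 5.83, 5.87, 6.03 and 6.04 log2 CPM in vehicle libraries, with no overlap. Jmjd6 was lower with corticosterone than with vehicle of the same day, by -0.54 ± 0.07 (SE, limma, adjusted p = 1.34e-07) at day 6 and -0.90 ± 0.07 (adjusted p = 9.71e-11) at day 9. It differed by 0.13 at day 3 (adjusted p = 0.109).

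Other members of that list followed other courses. Dnmt1, the maintenance DNA methyltransferase, fell early, with -0.42 and -0.61 over days 3 and 6 (limma, adjusted p = 6.18e-08 and 7.67e-11), and gave -0.01 at day 9 (adjusted p = 0.894). Ctcf, an architectural factor of chromatin, fell by 0.34 at day 6 (adjusted p = 3.04e-06).

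All 34 listed partners, proteins that bind AIRE, were tested, and 20 did not pass the test at day 6. At day 6, 3 were higher and 11 lower with corticosterone (22.9% and 24.3% of all genes; median -0.10). At day 9, 9 were higher and 0 lower (14.1% and 14.4%; median 0.02; 1 lower without corticosterone replicate 5), and at day 3, 1 was higher and 11 lower (23.3% and 25.6%). The totals called were below the shares of all genes, 49.0%, 47.2% and 28.5% at days 3, 6 and 9. The higher count at day 6 was 1 with the replicate block, and 1 without corticosterone day 6 replicate 1 or replicate 5; at day 3 it was 5 without corticosterone replicate 4 and 2 without replicate 6. Mbd1, which with ATF7IP reads methylated DNA, rose by 1.04 at day 6 (limma, adjusted p = 1.23e-15). Top2a, a topoisomerase of dividing cells, fell by 1.26 at day 6 (adjusted p = 1.84e-12) and differed by -0.05 at day 9 (adjusted p = 0.678).

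Relatives of AIRE that carry SAND or PHD modules gave 1 higher and 3 lower of 11 tested at day 6 (15 listed; median -0.06), a total below the 47.2% of all genes called. Trim24, a chromatin reader, rose by 0.85 (limma, adjusted p = 9.09e-12), and Uhrf1, which guides maintenance methylation, fell by 1.13 (adjusted p = 1.57e-11). None of the 3 eligible relatives, and none of the 5 eligible partners, reached r of 0.9.

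**Figure D4:**
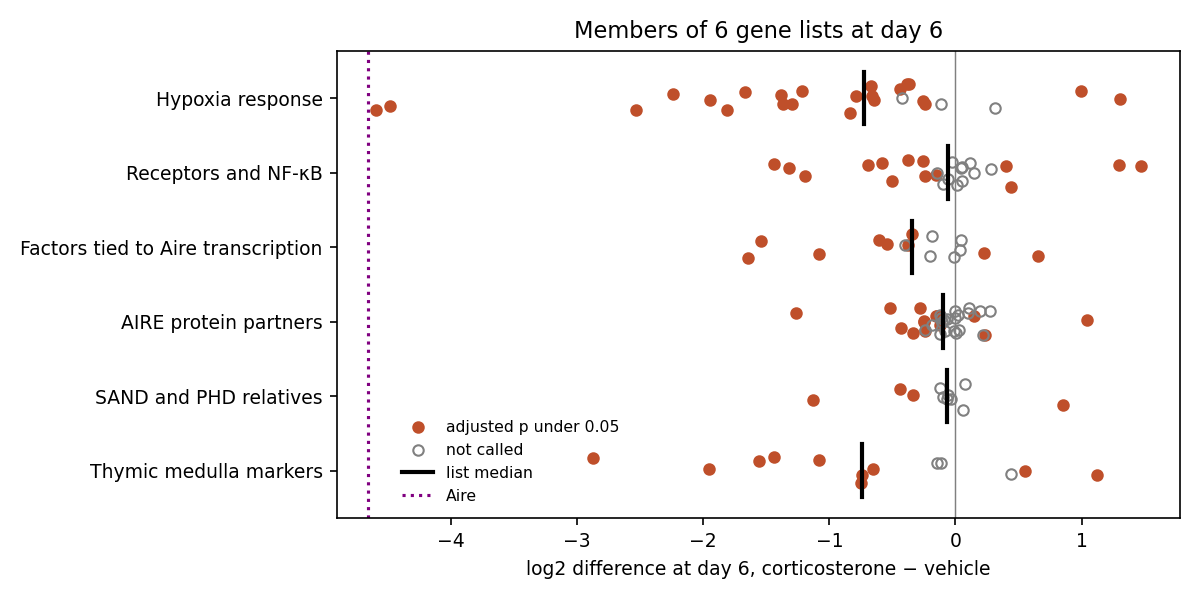
Log2 differences at day 6, corticosterone minus vehicle, for the tested members of 6 gene lists; filled points passed adjusted p under 0.05, open points did not, and black bars are list medians (-0.73 for hypoxia response genes, -0.06 for receptors and NF-κB genes). The dotted line marks Aire at -4.66; vertical scatter within a list has no meaning.

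Genes that Aire is known to switch on in the thymus could hardly be followed. Of 27 tissue-restricted genes listed, 1 was among the genes tested, the retinal arrestin Sag, which differed by 0.18 with corticosterone at day 6 (limma, adjusted p = 0.341). Medullary epithelial markers were tested for 13 of 28 genes. At day 6, 2 were higher and 8 lower with corticosterone (22.9% and 24.3% of all genes; median -0.74), and 1 and 4 under a stricter filter. The chemokine genes Cxcl10 (-1.96, adjusted p = 1.81e-17) and Ccl5 (-2.87, adjusted p = 5.22e-10) had the smallest p at day 6. Both also fell at day 3 (-1.80 and -1.97, adjusted p = 7.19e-17 and 4.26e-07). None of the 10 eligible markers reached r of 0.9 with Aire. The thymic epithelial genes Foxn1, Fezf2 and Ccl21a were not among the genes tested, and Psmb11, a proteasome subunit of the cortical epithelium, averaged -0.18 log2 CPM in corticosterone libraries and -0.07 log2 CPM in vehicle libraries of day 6.

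Hormone targets were called early, when Aire was low in both arms and a lowering of it could hardly be seen. Of 20 listed glucocorticoid receptor targets, 19 were tested, and 14 were higher and 3 lower at day 3 (23.3% and 25.6% of all genes), 11 and 3 at day 6 (22.9% and 24.3%), and 3 and 10 at day 9 (14.1% and 14.4%); the last lower count was 6 without corticosterone day 9 replicate 4. Fkbp5, a chaperone that damps the receptor, rose at each day, with 3.05, 2.61 and 0.74 over days 3, 6 and 9 (limma, adjusted p = 1.21e-16, 2.36e-15 and 3.98e-05). None of the 16 eligible targets reached r of 0.9 with Aire.

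The labelled cell type was checked against markers. Of 15 epithelial genes 10 were tested, and their summed level lay between 172 and 204 CPM over all groups, but Epcam averaged -0.32 log2 CPM after corticosterone and -0.76 log2 CPM in vehicle at day 6. Of the 10, 4 were higher and 3 lower with corticosterone at day 6 (22.9% and 24.3% of all genes). At day 9, 4 were higher, or 2 under a stricter filter, and 2 lower (14.1% and 14.4%). A steady sum therefore does not show that its members did not differ. Of 22 caput genes 5 were tested, and the defining genes Lcn5, Lcn8, Crisp1, Crisp4, Adam7, Gpx5 and Cst8 were not among them, so the caput identity rests on the labels. Of 18 myeloid and dendritic genes 4 were tested, without Ptprc, Adgre1 or Itgax. Their sum was lower after corticosterone, at 46.4 to 54.8 CPM after corticosterone and 103 to 114 CPM in vehicle at day 6, and 102 to 105 CPM after corticosterone and 148 to 160 CPM in vehicle at day 9. Cd68, a lysosomal protein, fell by 2.18 at day 6 (limma, adjusted p = 1.62e-15), and the myeloid sum had already parted at day 3, at 42.6 to 57.5 CPM after corticosterone and 80.8 to 84.8 CPM in vehicle. In vehicle the sum of day 3 was also above the 39.2 to 41.7 CPM of day 0, where the values of Aire overlapped. Of the 4 genes, 0 were higher and 3 lower with corticosterone at day 3 (23.3% and 25.6% of all genes) and at day 6 (22.9% and 24.3%). At day 9, 0 were higher and 1 lower (14.1% and 14.4%), and 4 genes are few to set against such shares. Csf1r, a receptor of macrophages, differed by 0.75 at day 9 (limma, adjusted p = 0.0546, and 0.0173 to 0.111 over the alternatives). None of the 3 with a likeness measure reached an r of 0.9 with Aire. Lymphocyte genes, 2 of 13 tested, summed to between 1.45 and 4.58 CPM over all groups. Germ cell genes, 2 of 14 tested, summed to 36.7 to 82.0 CPM after corticosterone and 1.18 to 1.45 CPM in vehicle at day 6; Zbtb16, also listed as a target of the receptor, alone averaged 63.6 ± 19.8 CPM after corticosterone and 0.12 ± 0.0658 CPM in vehicle (SD, n = 4 each). The part of these markers in the values of Aire was not tested.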

How the data were processed

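The deposited table holds log2 CPM values that the authors normalized; counts were not used here. The submitters' processing notes name kallisto, edgeR 3.40.1, limma 3.54.0 and mm10 without role or order, while annotation, prior count and scaling are not given in the sources used here. On the linear scale the libraries summed to between 949631 and 1059930 CPM. No 2 libraries were copies (smallest root mean square log2 difference 0.282), and 1 entry without a symbol was left out. The 28 columns were matched to samples by title and description.

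A filter of log2 CPM above 0 in 4 or more libraries removed 0 of 13128 genes. With limma 3.58.1 (R 4.3.3), group means were modelled over the 28 libraries together, with an intensity trend and 21 residual degrees of freedom, and Benjamini-Hochberg adjusted p under 0.05 over all genes called a gene. Data simulated for corticosterone against vehicle at day 6 over 13128 genes gave back 36, 70, 96 and 100% of 50 genes each planted at 0.25, 0.5, 1 and 2 log2 units. Of 12928 unchanged genes, 3 were called. The noise was normal, with the same spread for a gene in every group. A smaller share of genes was changed than the 47.2% called in the data, so these rates describe that setting and may not hold for the real comparison.

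Named were Aire, its tested neighbours, the 10 genes most like it and up to 4 members a list with the smallest p at day 6, of which 1 is not reported here; Tnfrsf11a, Cd40 and the genes least like Aire were named outside that rule after their values were seen. The members and lists were chosen with earlier results of these data known. Deviations of same-numbered libraries correlated weakly. They were above 0.1 in every pair for corticosterone against vehicle at day 6 (0.11 to 0.156, 3 pairs) and vehicle day 6 against day 3 (0.113 to 0.174). In the other comparisons some pairs were below 0.1, though replicate 4 gave 0.167 for corticosterone against vehicle at day 9. Libraries of different numbers were not compared and no label states pairing, so whether the numbers pair libraries is not known. Alternatives were another filter, scaling, log2(CPM + 1) and log2(CPM + 5), other fits, a replicate block, adjusted p under 0.01 and each library left out.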

Additional observations from a re-analysis of the deposited data

Results flagged for a closer look

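Aire, its 7 tested neighbours and the 10 genes most like it were screened in each of the 7 groups. The other named genes were not. Single libraries stood apart from the other 3 of their group by Dixon's criterion, which chance meets in about 1 group of 20. Aire itself met it in no group. In corticosterone cultures, Gatd3a read 6.99 log2 CPM in day 3 replicate 4 (others 6.57 to 6.61), Fam162a 5.17 in the same library (others 4.44 to 4.49) and Fam162a 4.41 in day 6 replicate 6 (others 4.44 to 4.45). In vehicle cultures of day 3, Trpm2 read 1.52 in replicate 6 (others 1.02 to 1.09), Pdk1 5.46 in replicate 6 (others 5.03 to 5.06) and Fam162a 4.07 in replicate 3 (others 4.37 to 4.42). Replicate 6 of vehicle day 3 is also the library in which Aire was highest in its group. At day 6, Apln read 4.78 in vehicle replicate 6 (others 4.64 to 4.66). At day 9, Egln1 read 8.49 and Pdk1 8.27 in vehicle replicate 4 (others 8.61 to 8.63 and 8.37 to 8.38). At day 0, Bnip3l read 6.54 in replicate 6 (others 6.15 to 6.20) and Higd1a 5.43 in replicate 5 (others 5.59 to 5.60).

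Among the neighbours of Aire the corticosterone effect differed between days, tested as an interaction with limma and adjusted over all genes. Day 6 differed from day 3 by -2.00 for Pfkl (adjusted p = 1.78e-10), by 0.22 for Pwp2 (adjusted p = 0.00228) and by -0.28 for Cfap410 (adjusted p = 0.0486). Day 9 differed from day 6 by 0.36 for Pfkl (adjusted p = 0.0493), by -0.58 for Icosl (adjusted p = 3.04e-05), by -0.47 for Gatd3a (adjusted p = 0.000357) and by 0.30 for Pwp2 (adjusted p = 1.55e-05).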

How the results depend on the processing

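Of the alternatives to the values of Aire, 102 kept its sign and stayed within the replicate spread, 11 moved it and 1 turned it. Many of the 102 could not differ. Another filter, no intensity trend, robust moderation and a fit of only the groups compared leave a difference of group means unchanged by construction. The replicate block does so too where both groups hold the same replicate numbers. Leaving out 1 library gave corticosterone minus vehicle differences of -0.39 to 0.19 at day 3 (0.19 without vehicle replicate 6), -4.86 to -4.41 at day 6 and -5.61 to -4.95 at day 9, and vehicle differences of 4.49 to 5.07 (day 6 minus day 3), 1.87 to 2.01 (day 9 minus day 6) and 6.26 to 6.44 (day 9 minus day 0). With the replicate block, Aire gave -0.09, -4.51 and -5.30 at days 3, 6 and 9, and 4.68, 1.95 and 6.34 in vehicle. A larger pseudocount shrank it, by construction. In the order day 6, day 9, vehicle day 6 minus 3, 9 minus 6 and 9 minus 0, log2(CPM + 1) gave -2.14, -3.56, 2.13, 1.72 and 3.83, and log2(CPM + 5) gave -0.83, -1.95, 0.82, 1.20 and 2.02. Quantile normalization gave 5.45 for vehicle day 9 minus day 0. Of the 10 genes most like Aire, 6 stayed with log2(CPM + 1), 3 with quantile normalization and 1 with Spearman's rho.

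Genes called at adjusted p under 0.01 numbered 2401 (corticosterone day 9), 1873 (vehicle day 6 against 3) and 532 (day 9 against 6), against 3736, 3149 and 1029 at 0.05, and library weights gave 4744 and 2470 in the vehicle steps. Without 1 library they ran from 5915 to 6581, 5635 to 5991 and 3128 to 3426 with corticosterone at days 3, 6 and 9, and from 2548 to 2790, 713 to 1027 and 8904 to 8993 in the vehicle comparisons. The replicate block gave 6325, 5993 and 3827, and 3261, 1058 and 9280. In the comparisons where every same-numbered pair correlated above 0.1, the block ended the call of Cfap410 at corticosterone day 6 (-0.13). It added Cdsn (-0.23) and Dhx9 (0.14) at vehicle day 6 against 3. The block also moved the higher AIRE partners at day 6 to 1 and the lower cornified genes at vehicle day 6 against 3 to 1. It changed no other named call there. Quantile normalization turned Dnmt1 to 0.11 (limma, adjusted p = 0.0475) and Grhl1 to -0.41 (adjusted p = 0.000671) at vehicle day 9 against day 0; the cause was not tested. Low values of Aire, under 1 CPM with depth unknown, limit what can be said of differences among day 0, day 3 and treated day 6 libraries.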

Other observations

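A further list held genes of late, cornified medullary epithelium, of which 6 of 18 were tested. At day 6, 1 was higher and 4 lower with corticosterone (22.9% and 24.3% of all genes; median -0.75). Sprr1a, a precursor of the cornified envelope, fell, with -2.46, -3.82 and -1.10 over days 3, 6 and 9 (limma, adjusted p = 1.08e-11, 2.3e-15 and 3.21e-05), and rose by 2.60 in vehicle at day 6 against day 3 (adjusted p = 3.22e-11), the step in which Aire also climbed. Vehicle day 9 against day 0 gave -0.38 for Sprr1a (adjusted p = 0.0559), where Aire was 6.34 higher.

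Fibroblast and smooth muscle genes, 7 of 13 tested, summed to 114 to 138 CPM after corticosterone and 62.8 to 66.4 CPM in vehicle at day 3, to 70.2 to 79.7 CPM after corticosterone and 71.3 to 75.3 CPM in vehicle at day 6, and to 84.3 to 88.3 CPM after corticosterone and 81.2 to 95.7 CPM in vehicle at day 9. The sums were apart at day 3 and overlapped at days 6 and 9. Within the list 3 members were higher and 3 lower with corticosterone at day 6 (22.9% and 24.3% of all genes), so an overlap of sums does not show that its members did not differ.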
